A study of Mus musculus with 24 samples.

Results

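The circular RNAs described here are those that take in untranslated sequence of a protein-coding transcript: 286 of the 1717 circles listed for mouse cardiac fibroblasts. The rule that finds them uses the annotation alone and no expression value, but it was chosen with earlier results of these data known. Both ends of the circle's span had to match exon edges of 1 GENCODE protein-coding transcript on the circle's strand, and the span had to reach outside the stretch from the first to the last coding base. Where several transcripts matched, the APPRIS principal transcript was taken, then the one with most exons. By this rule 259 circles from 210 host genes contained the start codon with part of the 5′ UTR ("start-codon circles"), 9 contained the stop codon with part of the 3′ UTR ("stop-codon circles"), 17 from 13 host genes lay wholly within the 5′ UTR, and 1 held a whole coding sequence with a little of both UTRs. None lay wholly within the 3′ UTR. Another 1361 circles consisted of coding exons alone and 70 matched no protein-coding transcript at both ends.

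The fibroblasts came from hearts of male C57BL/6J mice operated on at 8 weeks of age. In the animals with transverse aortic constriction (TAC), a surgical pressure overload of the left ventricle, a suture was tied around the aortic arch between the innominate and left carotid arteries. Sham animals had the operation without the ligature. Hearts were taken 1, 4 or 8 weeks after surgery and fibroblasts were isolated by Langendorff perfusion, with no mention of a sort by cell type in the labels. Libraries numbered 4 sham and 4 TAC for the 1-week hearts, 5 sham and 4 TAC for the 4-week hearts, and 4 sham and 3 TAC for the 8-week hearts. Whether each library was a separate animal is not stated, and the p-values below measure the spread among libraries, which may be technical. In bulk RNA of this kind, fewer cells of a type and less RNA per cell cannot be told apart.

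A circular RNA forms when the splicing machinery joins a donor site backwards to an acceptor site that lies upstream of it, the back-splice. The first exon of a gene has no splice acceptor and the last has no donor, so both are usually left out of circles. The start codon therefore enters a circle when it lies in an internal exon, and with it come the nucleotides of 5′ UTR between the acceptor of that exon, or of an earlier one, and the ATG. Such circles place an initiation codon on a molecule that has neither cap nor poly(A) tail. Some circular RNAs with a start codon, such as that of ZNF609, are known from other work to be translated to a small extent, and whether any circle here is translated was not measured.

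The back-splice junctions of the circles on which the results turn are shown first, since the junction is the sequence by which a circle is recognised. Each line gives the last 15 bases of the circle's final exon in lower case, followed by the first 15 bases of its opening exon in capitals, 5′ to 3′ on the transcript's strand (GENCODE M21 transcripts, GRCm38/mm10).
Nfkb1 exons 2-6: tacccacaggtcaaaGTACCCTCAGAGGCC
Elf2 exons 2-4: agaattcagaaacagTAGTTCCAGAGAACC
Ube3a exons 2-4: tgaagctagccgaatGTTAAAAAATCTCTC
Ezh2 exons 2-3: cgcgggactagggagAATAATCATGGGCCA
Tcf20 exons 2-3: gtgccattgacgcagGAGGGCTGCTGGCCT
Hipk3 exon 2: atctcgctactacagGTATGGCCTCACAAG
Atxn1 exons 2-3: caggaatggtttgggAAGTATCCTGCACCG
Atxn1 exons 2-4: aggcaaatggtacagAAGTATCCTGCACCG
The Ezh2 and Hipk3 junctions carry the start codon within the capitals, because only 7 and 2 nucleotides of 5′ UTR lie between the splice acceptor and the ATG. Both Atxn1 circles begin with the same bases, since they share an acceptor and differ in the donor exon. These circles span chr3:135655500-135669339 (Nfkb1, minus strand), chr3:51308050-51326035 (Elf2, minus), chr7:59240967-59247217 (Ube3a, plus), chr6:47576536-47577667 (Ezh2, minus), chr15:82825231-82857284 (Tcf20, minus), chr2:104470749-104471847 (Hipk3, minus), chr13:45852328-45956575 (Atxn1 exons 2-3, minus) and chr13:45795509-45956575 (Atxn1 exons 2-4, minus).

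For circles in which the ATG lies further from the junction, the window around the annotated start codon is given, with ATG in capitals, to show the letters that a ribosome would meet there.
Nfkb1: cgcatcttcaccATGgcagacgat
Elf2: agggaacgcacgATGgcatcggcg
Ube3a: tgatgtcaccgaATGgccacagct
Smox: agcacggacggcATGcaaagttgt
Tcf20: ctgctgaacagtATGcagtcgttt
The strong initiation context has A or G at the third base before the ATG and G just after it. The windows of Nfkb1 and Elf2 match it, as do the start codons of Ezh2 and Hipk3 in the junctions above. Those of Ube3a, Smox and Tcf20 do not.

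The 259 start-codon circles shared an architecture. In 204 of them (78.8%) the circle began at exon 2 of the transcript, against 26.1% of the circles of coding exons alone. A further 36 began at exon 3 and 16 at exon 4 or later. The remaining 3 began at the annotated transcript start: Mtmr3 exons 1-4, Mtmr3 exons 1-6 and Nav1 exons 1-3. The start codon lay in the circle's opening exon in 218. Single-exon circles made up 15.8% of the class (41 circles) and 4.19% of the coding-only circles; 83 had 2 exons and 135 had 3 or more. The median start-codon circle was 536 nt long when spliced (quartiles 351.5 and 819.5 nt), against 402 nt for coding-only circles, and its median genomic span was 7044 bp against 6241 bp. These lengths assume that all annotated exons between the ends are kept.

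The untranslated portion was usually short. Its median was 50 nt (quartiles 17 and 128 nt), 9.51% of the circle, and 79 circles held fewer than 20 nt of it. The shortest was 1 nt, in Gatad2a exon 3, Gatad2b exon 2 and the circle of Sec31a. The longest were 677 nt in the circle of Usp54 and 539 nt in that of Nxpe4, and untranslated sequence made up over 50% of 20 circles. The coding portion had a median of 438 nt, or 22.0% of the transcript's coding sequence. Tcf20 exons 2-3, whose host encodes a transcriptional coregulator, was an extreme case: 5866 nt spliced, 36 nt of 5′ UTR, and 98.9% of the coding sequence.

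Hosts of start-codon circles differed from other genes in where translation starts, largely through the rule itself. The start codon lay in exon 1 in 0.476% of the 210 hosts, in exon 2 in 66.7% and in a later exon in 32.9%. Among the 970 hosts of coding-only circles the same shares were 67.6%, 24.9% and 7.42%, and among all 18160 annotated protein-coding genes with at least 3 exons they were 59.5%, 27.8% and 12.8%. The near absence of exon 1 follows from the rule, since first exons are rarely part of a circle. The larger shares of exon 2 and later exons come with it, as the shares make up a whole. Both describe the class and are not a finding on its hosts.

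**Figure D1:**
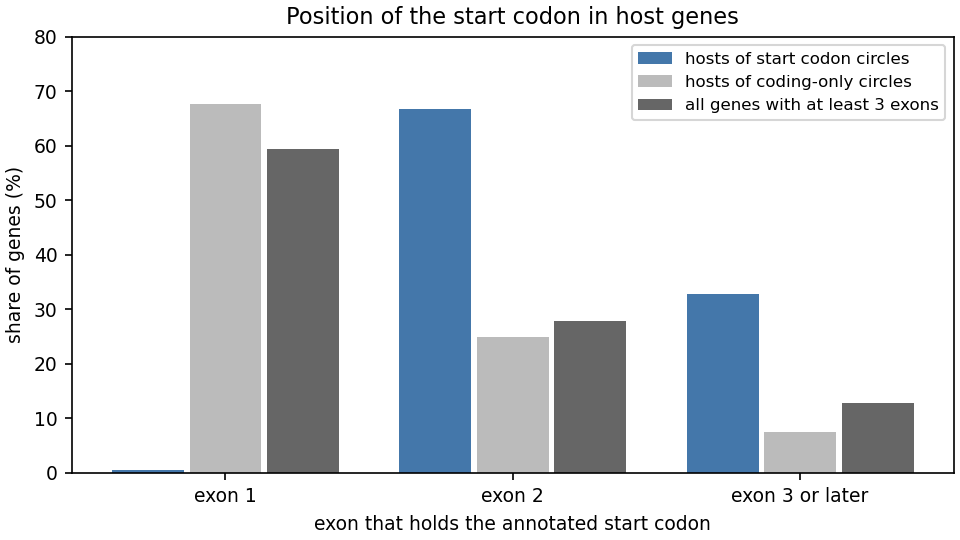
Percentage of genes whose start codon lies in exon 1, exon 2 or a later exon, for hosts of start-codon circles, hosts of coding-only circles and all genes. Exon 1 holds the start codon in 0.476% of the start-codon hosts and 59.5% of all genes.

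The strong initiation context (ANNATGG or GNNATGG on the transcript strand) was present in 80 of the 259 start-codon circles (30.9%) and in 65 of their 210 hosts (31.0%). It was present in 46.5% of 948 hosts of coding-only circles and in 41.5% of 20529 genes. Among genes with the start codon in exon 2 or later the shares were lower, 38.0% and 36.8%, and still above that of the start-codon hosts. In 11 circles fewer than 3 nt of 5′ UTR precede the ATG, and the base that sets the context there is read across the back-splice junction: 5 had the strong context in the mRNA and 5 in the circle, the same 5 in both.

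Reading from the annotated ATG around the circle, no frame closed before the junction, since only the coding sequence up to the last exon of the circle is read there. In 148 circles (57.1%) a stop codon was met in the untranslated portion soon after the junction, a median of 7 codons past it, giving a median frame of 144 codons. In 85 (32.8%) the frame ran through the untranslated portion, passed the ATG again and closed on the next round, with a median frame of 203 codons. The other 26 (10.0%) had no stop in 3 rounds. The number of nucleotides was a multiple of 3 in 79 start-codon circles (30.5%) and in 36.7% of coding-only circles. Frames before the junction reached at least 100 codons in 163 circles and at least 200 in 80. Counted on past the junction, the whole frame was 92 codons for the Ezh2 circle and 387 for the Hipk3 circle. It was 455 codons for Ep400 exon 2 and 2002 for Tcf20 exons 2-3. Nfkb1 exons 2-6 closed after 123 codons on the next round, and Ikzf1 exons 2-3 had no stop.

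**Figure D2:**
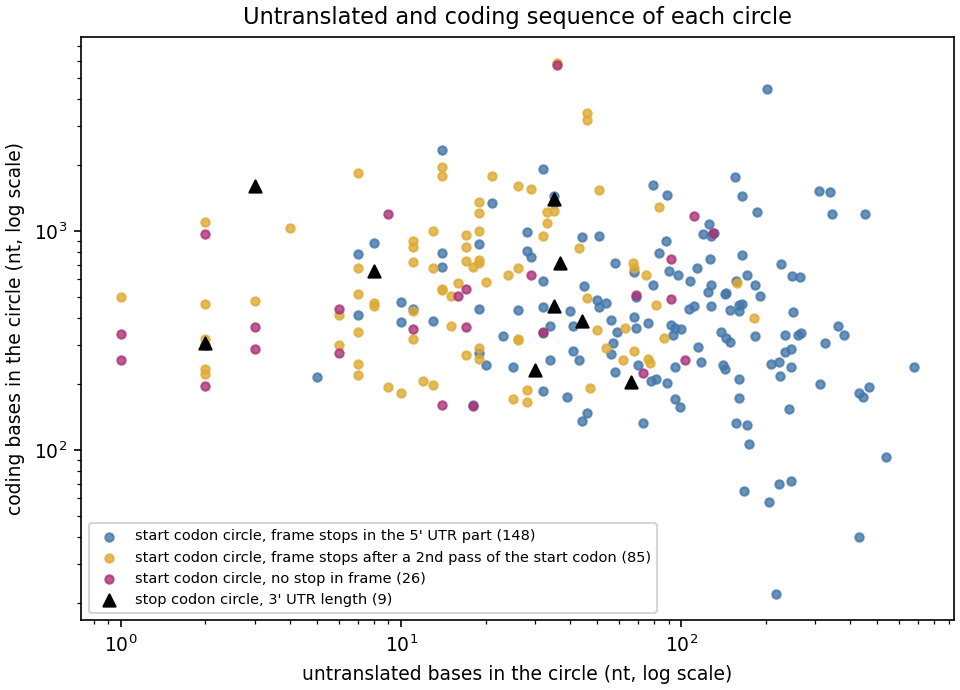
Coding bases (vertical axis, nt) against untranslated bases (horizontal axis, nt) of each start-codon circle, coloured by where the frame from the ATG ends, and of the 9 stop-codon circles (triangles); both axes are logarithmic. The 148 circles whose frame stops in the untranslated portion lie mostly to the right, among the longer untranslated portions.

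The 9 stop-codon circles came from Cpsf6 (a subunit of the pre-mRNA cleavage factor), Rap1b (a small GTPase), Foxo3 (a forkhead transcription factor), Stk35 (a kinase), Car8 (a carbonic anhydrase-related protein), Ywhag (14-3-3 gamma), Chmp3 (an ESCRT-III subunit), Tmem164 and Gm4924. They had a median spliced length of 491 nt, a median of 35 nt of 3′ UTR (2 to 66 nt) and 68.9% of the coding sequence, and 3 were single exons. The 17 circles wholly within the 5′ UTR were short, 250 nt spliced (154 to 568 nt), but spanned a median of 28051 bp, and 16 of the 17 began at exon 2. Atxn1, which encodes ataxin-1, a transcriptional corepressor, gave 4 of them and Nrip1, a nuclear receptor corepressor, gave 2; the others came from Fryl, Ptk2, Trak1, Hivep2, Fkbp5, Lpp, Etv6, Frs2, Wdfy3, Mrtfa and Zmiz1. Tmem164 exons 2-6 was the circle with a whole coding sequence: 57 nt of 5′ UTR, 447 coding nt and 2 nt of 3′ UTR, with a frame of 148 codons, on chrX:142752040-142834393. No APPRIS principal transcript matched it, so this coding sequence is that of another annotated transcript. The transcript used was a principal one for 246 of the 259 start-codon circles, 7 of the 9 stop-codon circles and 13 of the 17 within the 5′ UTR.

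The levels below are normalized reads across the back-splice junction, with 1 junction per circle, so that they do not scale with the length of the circle. Libraries held 3595 to 9146 junction reads and 1 read was worth 0.642 to 1.57 normalized reads; most circles were therefore seen by few reads. The median circle mean over the 24 libraries was 2.05 normalized reads for start-codon circles, 1.84 for stop-codon circles, 3.06 for circles wholly within the 5′ UTR and 1.75 for coding-only circles. Of the start-codon circles 60 (23.2%) were detected in every library, against 16.1% of all circles, and 21 (8.11%) were among the 100 most abundant circles, against 5.82% of all. Single-exon and 2-exon start-codon circles had medians of 2.47 and 2.48 normalized reads and those with 3 or more exons 1.79; the corresponding medians of coding-only circles were 2.19, 1.88 and 1.72.

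The most abundant was Nfkb1 exons 2-6, from the gene of the p105 and p50 subunit of NF-κB, with a mean of 32.3 normalized reads, rank 7 of all circles. Elf2 exons 2-4, from an ETS transcription factor gene, had a mean of 28.8 and rank 10. Ube3a exons 2-4, from an E3 ubiquitin ligase gene, had group means between 21.1 and 26.1 normalized reads in all 6 groups, and its log2 differences between TAC and sham were -0.01 at 1 week, -0.08 at 4 weeks and -0.01 at 8 weeks. The group means of Elf2 ran from 24.8 to 32.9. The other abundant start-codon circles came from Phf21a (a reader of unmodified histone H3 in a demethylase complex), Smox (spermine oxidase), Ezh2 (the methyltransferase of Polycomb repressive complex 2), Hipk3 (a nuclear kinase), Tasp1 (a protease), Tent4a (a non-canonical poly(A) polymerase), Ep400 (a chromatin remodeller), Rabgef1 (an endosomal exchange factor) and Setbp1.

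In 52 hosts that gave both kinds, the start-codon circle could be set beside a coding-only circle of the same gene. The most abundant start-codon circle had the higher mean in 31 of the 52, with a median ratio of 1.33 (quartiles 0.632 and 3.01). The ratio was 16.1 for Phf21a, at 23.4 against 1.45 normalized reads, 14.1 for Atxn7 and 8.60 for Ep400. In 21 hosts the coding-only circle was the more abundant.

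Start-codon circles took 17.3% ± 1.64 (SD, n = 24) of the junction reads of a library, with a range of 15.01 to 21.8%. At 1 week the sham libraries had 15.01, 15.1, 17.9 and 18.5% and the TAC libraries 18.2, 18.5, 19.6 and 21.8%. The group means were 16.65% ± 1.83 and 19.5% ± 1.65 (SD, n = 4 each), and the groups overlapped, with 2 TAC libraries below the highest sham library. Without the 4 start-codon circles that passed a test described below (of Ezh2, Tcf20, Setbp1 and Nfkb1), the ranges were 14.1 to 17.6% in sham and 16.3 to 19.5% in TAC. The means were 16.3% in sham and 17.1% in TAC 4 weeks after surgery and 17.6% and 16.7% after 8 weeks, with overlapping groups both times.

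Circles wholly within the 5′ UTR went the other way at 1 week. They took 1.36, 1.57, 1.69 and 1.87% of the reads in the sham libraries and 0.774, 0.973, 1.09 and 1.14% in the TAC libraries, so that every sham value was above every TAC value. The 4 Atxn1 circles accounted for 0.613 to 1.22% in sham and 0.258 to 0.636% in TAC. The circles of the other hosts, at 0.561 to 0.960% in sham and 0.452 to 0.556% in TAC, did not overlap between groups either, though barely. Their nearest values, 0.561% in sham and 0.556% in TAC, lay closer together than the share of 1 read in a library. At 4 weeks the means were 1.57% and 1.43%. Stop-codon circles took 0.409% and the whole coding sequence circle of Tmem164 0.193% of reads over all libraries.

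**Figure D3:**
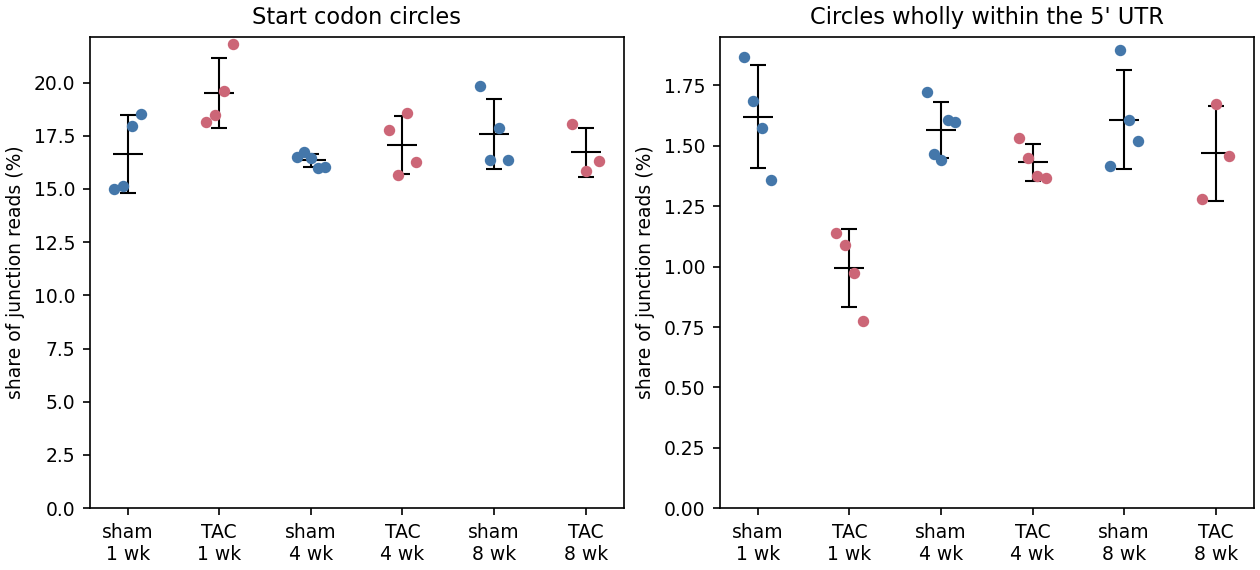
Percentage of junction reads in start-codon circles and in circles wholly within the 5′ UTR, by surgery and week; each point is 1 library, and the bars give the mean and SD. At 1 week the TAC libraries had 18.2 to 21.8% in start-codon circles against 15.01 to 18.5% in sham, and 0.774 to 1.14% in 5′ UTR circles against 1.36 to 1.87%.

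Which single circles differed after TAC was tested with limma on log2(normalized reads + 0.5), with p-values adjusted over all 1717 circles; on this scale the change of a scarce circle is understated. At 1 week 4 members passed an adjusted p of 0.05: 3 start-codon circles, of Ezh2, Tcf20 and Setbp1, were higher in TAC and 1 circle of the Atxn1 5′ UTR was lower. Among all circles 1.46% passed, 0.757% higher and 0.699% lower, which is close to the share of the members.

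The circle of Ezh2 exons 2-3 had 7.54, 12.5, 19.5 and 10.3 normalized reads in the sham libraries at 1 week and 23.1, 43.1, 34.9 and 52.5 in the TAC libraries. All TAC values were above all sham values. The circle rose 3.08-fold in group means (12.5 against 38.4), with a log2 fold change of 1.60 ± 0.39 (SE) and an adjusted p of 0.0113 by limma. Without TAC library 2 or 4 the adjusted p was 0.0547 or 0.0629. At 4 weeks the log2 difference was 0.75 and at 8 weeks -0.35, and the difference between the effects at 8 and at 1 week, -1.96, had an adjusted p of 0.15. The gene's other circle of these exons, chosen here after its values were seen, ends at a nearby donor (chr6:47576563-47577667). It had 2.51, 3.74, 4.51 and 2.07 normalized reads in sham and 6.15, 10.54, 7.99 and 10.7 in TAC at 1 week, again with no overlap, and did not pass the test (log2 1.35, adjusted p = 0.309 by limma).

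Tcf20 exons 2-3 had 0, 1.25, 7.51 and 8.27 normalized reads in sham and 7.69, 8.63, 19.0 and 11.7 in TAC at 1 week. The lowest TAC value lay below the highest sham value, and the low values were those of sham libraries 1 and 2. The log2 fold change was 2.04 ± 0.53 (SE), adjusted p = 0.0239 by limma. Without sham library 1 it was 1.22 with an adjusted p of 0.306, and without sham library 2, TAC library 3 or TAC library 4 the adjusted p was 0.0972, 0.119 or 0.0548. The group means of sham were 4.26 at 1 week, 11.8 at 4 weeks and 7.54 at 8 weeks, and the 1-week TAC mean, 11.7, was close to that of the 4-week sham libraries. The single-exon circle of the same gene, Tcf20 exon 2, had means of 5.81 in sham and 9.79 in TAC (log2 0.58, adjusted p = 0.662).

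The single-exon circle of Setbp1 (chr18:79086551-79087180, minus strand), whose host encodes a binding partner of the SET oncoprotein, had 7.54, 8.73, 1.503 and 12.4 normalized reads in sham and 21.5, 16.3, 15.97 and 19.5 in TAC. The groups did not overlap. Its log2 fold change was 1.497 ± 0.43 (SE) with an adjusted p of 0.0420 by limma, a value near the threshold: it was 0.351 without sham library 3, where the log2 fold change was 0.92, and it also missed the threshold without sham library 2 or any 1 of the 4 TAC libraries. At 4 and 8 weeks the TAC means were 1.04 and 1.21 times the sham means.

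The lower circle was Atxn1 exons 2-3, wholly 5′ UTR. It had 42.7, 26.2, 15.03 and 17.6 normalized reads in sham and 9.23, 21.1, 8.98 and 2.92 in TAC at 1 week. TAC library 2 lay within the sham range. The log2 fold change was -1.39 ± 0.37 (SE), adjusted p = 0.0241 by limma; without sham library 1 it was -1.11 with an adjusted p of 0.126, without TAC library 4 it was -0.92 with an adjusted p of 0.311, and without sham library 2 or TAC library 3 it also missed the threshold. The means were 23.4 and 23.0 at 4 weeks and 28.2 and 20.7 at 8 weeks. Of the 4 calls, that of Ezh2 alone also passed both with limma-voom and with the 1-week libraries fitted alone. The adjusted p-values with limma-voom were 0.0541 for Tcf20, 0.111 for Setbp1 and 0.105 for Atxn1 exons 2-3, and with the 1-week libraries 0.132, 0.199 and 0.194. Setbp1 also missed the threshold with a pseudocount of 0.1, at 0.0505.

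Atxn1 exons 2-4 had 16.3, 22.4, 13.5 and 19.6 normalized reads in sham and 9.23, 6.71, 7.99 and 2.92 in TAC, with no overlap. Its log2 difference was -1.44 ± 0.43 (SE) and its adjusted p 0.0535 by limma, just outside the threshold; with the replicate number as a block it was 0.0267. The other Atxn1 circles, exons 2-5 and exons 2-6, had log2 differences of -0.33 and -0.09. Among other 5′ UTR circles, 1 of the Nrip1 exons 2-3 circles (chr16:76330746-76352549) had the most negative difference, -1.59 (adjusted p = 0.325 by limma). The other, which ends at 76352546, had 0, 1.25, 0 and 0 normalized reads in sham and 3.08, 0, 0 and 1.95 in TAC, a difference of 0.83. Hivep2 had -1.10 and Ptk2 -1.04. The differences were positive in 5 of the 17, with a median of -0.15 beside 0.04 over all circles. That median was -0.37 without sham library 3 and -0.06 without sham library 1, and -1.04 over the 5 circles with a mean of at least 5 reads.

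**Figure D4:**
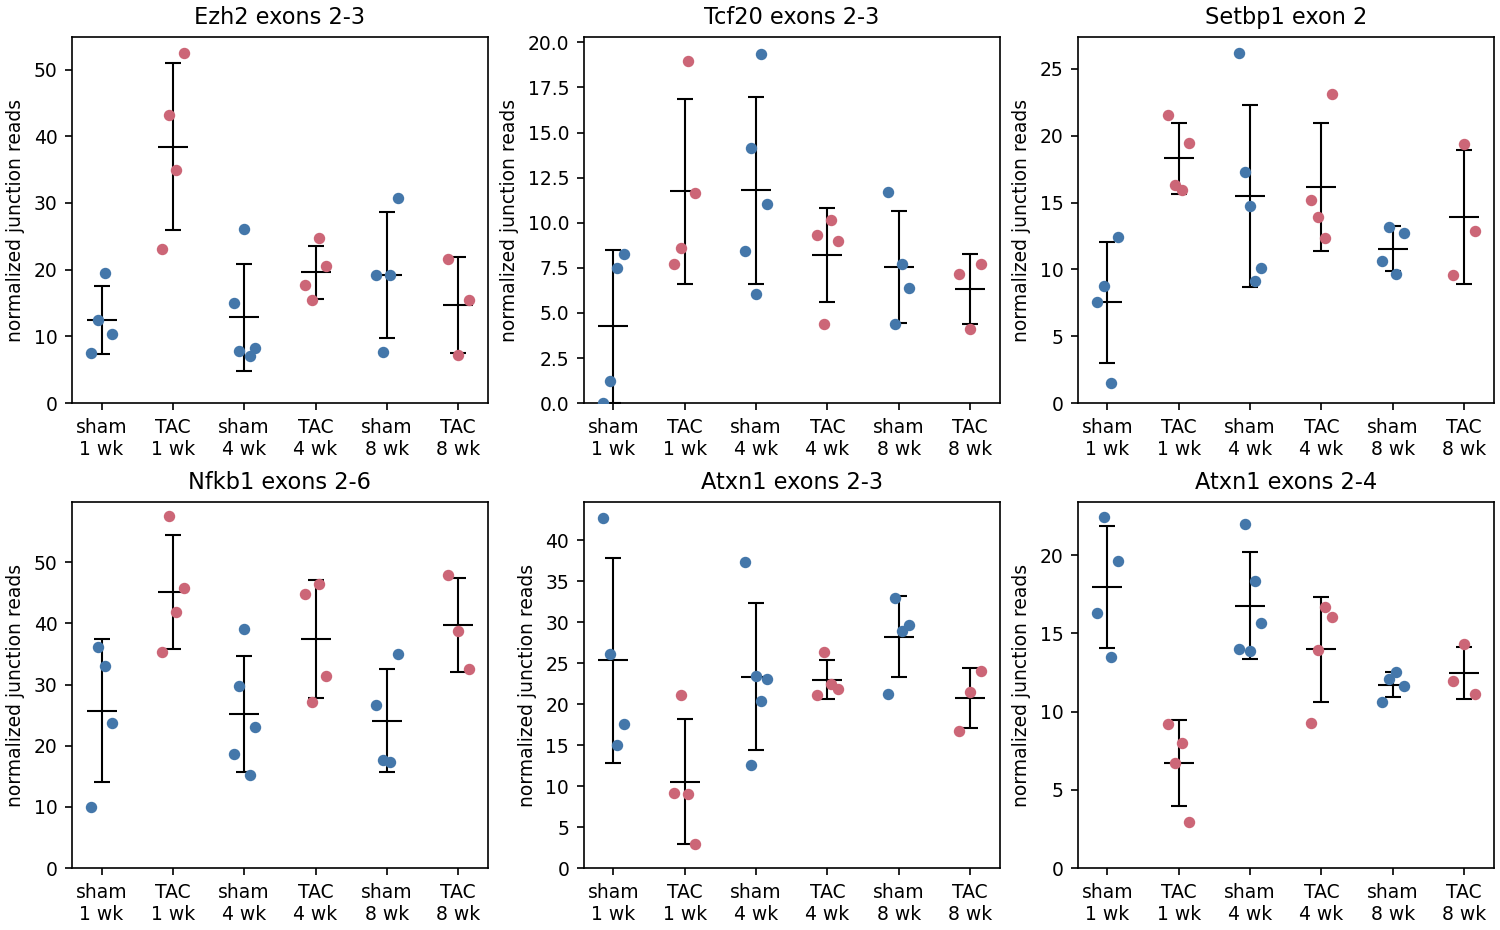
Normalized junction reads in each library, by surgery and week, for 6 circles, with the mean and SD of each group. At 1 week Ezh2 exons 2-3 lies between 23.1 and 52.5 in TAC and between 7.54 and 19.5 in sham, whereas Atxn1 exons 2-4 lies between 2.92 and 9.23 in TAC and between 13.5 and 22.4 in sham.

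Other start-codon circles leaned the same way at 1 week without passing the test. Kat6b exon 2, from a histone acetyltransferase gene, had 1.26, 2.49, 6.01 and 7.24 normalized reads in sham and 10.8, 8.63, 13.98 and 13.6 in TAC, with no overlap (log2 1.58, adjusted p = 0.107 by limma). Zfp609 exon 2, the mouse counterpart of the circle of ZNF609, had 5.02, 2.49, 1.503 and 5.17 in sham and 10.8, 9.59, 11.0 and 8.76 in TAC, also apart (log2 1.502, adjusted p = 0.0938, and 0.02 with circles under a mean of 5 reads left out). On the other side Afap1 exons 2-3 had -1.52, Mtmr3 exons 2-4 -2.01 and Rev1 exons 2-3 -1.26 (-0.71 without TAC library 3). Start-codon circles with groups that did not overlap numbered 8 higher (3.09%, against 2.21% of all circles) and 4 lower (1.54% against 3.03%). The median log2 difference of the 259 was 0.25 beside 0.04 over all 1717, and 60.2% were positive beside 51.9%; without sham library 2 the median was 0.14. At an unadjusted p under 0.05 there were 33 of them, 12.7% against 11.7% of all circles: 25 higher, beside 6.17% of all circles, and 8 lower, beside 5.53%.

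**Figure D5:**
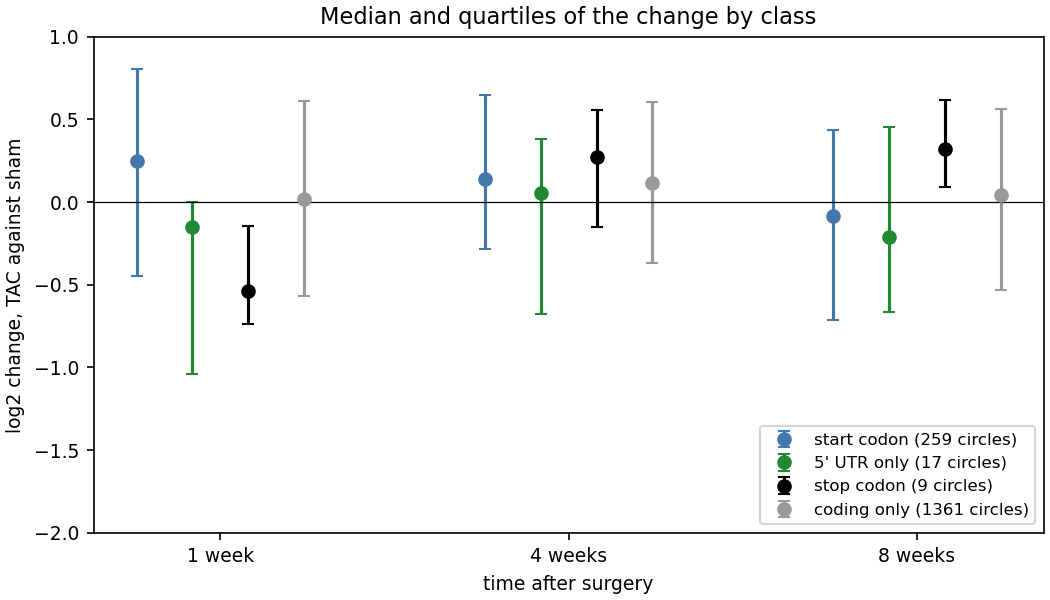
Log2 difference between TAC and sham at 1, 4 and 8 weeks, by class of circle; points are medians over circles and bars reach from the lower to the upper quartile. The median of the start-codon circles was 0.25 at 1 week, 0.14 at 4 weeks and -0.08 at 8 weeks, beside 0.04, 0.12 and 0.03 over all circles; over the 54 start-codon circles with a mean of at least 5 reads it was 0.29, 0.03 and 0.07.

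Averaged over the 3 times, 1 member passed the test, beside 0.641% of all circles in either direction and 0.349% higher: Nfkb1 exons 2-6 rose. At 1 week it had 10.1, 36.2, 33.1 and 23.8 normalized reads in sham and 35.4, 57.5, 41.9 and 45.7 in TAC. At 4 weeks it had 18.7, 29.9, 39.0, 15.3 and 23.0 in sham and 44.8, 27.1, 46.5 and 31.5 in TAC, and at 8 weeks 26.6, 17.6, 17.3 and 35.0 in sham and 47.9, 38.8 and 32.6 in TAC. The groups overlapped at each time, yet each of the 11 TAC libraries lay above the sham mean of its time. The averaged log2 fold change was 0.76 ± 0.18 (SE), adjusted p = 0.00822 by limma, from 0.92, 0.61 and 0.75 at the 3 times; without TAC library 1 of 8 weeks the adjusted p was 0.0612.

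At 4 weeks limma called no member, beside 0.116% of all circles. At an unadjusted p under 0.05 there were 30 of the 286, beside 7.98% of all circles. Limma-voom, the other tool run, called 10 circles, of which 1 was a member, Phf21a exons 2-6. Ikzf1 exons 2-3, from the gene of the lymphoid transcription factor Ikaros, had 15.9, 18.9, 9.54, 11.2 and 10.1 normalized reads in sham and 2.54, 3.67, 3.63 and 5.78 in TAC. Every TAC value was below every sham value (log2 -1.63 ± 0.48 SE, adjusted p = 0.146 by limma). With circles under a mean of 5 reads left out the adjusted p was 0.0215, and with the 4-week libraries alone 0.0253. Phf21a exons 2-6 had 4.67, 34.6, 13.02, 16.3 and 23.0 in sham and 35.5, 25.7, 45.0 and 27.0 in TAC, with overlap (log2 1.065, adjusted p = 0.281 by limma, 0.0141 by limma-voom and 0.0326 with the 4-week libraries alone). Without sham library 1 the log2 difference was 0.66. Cnot4 exons 2-3, from a ubiquitin ligase gene of the CCR4-NOT deadenylase complex, had 3.74, 1.57, 0.868, 2.04 and 1.84 in sham and 6.76, 5.87, 10.2 and 9.63 in TAC, apart in all libraries (log2 1.84, adjusted p = 0.281 by limma). Start-codon circles without overlap numbered 10 higher (3.86%, against 2.33% of all circles) and 1 lower (0.386% against 1.22%). The lower one was Ikzf1. Depth also separated the groups at this time, with 6846 to 9146 junction reads in the TAC libraries and 3618 to 6524 in sham. The part of depth in the differences of scarce circles was not tested.

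Ikzf1 belongs to the list of macrophage and other leukocyte markers. The circles of 13 of that list's 57 genes, led by Adgre1, summed to 98.9 to 193 normalized reads in the 4-week sham libraries and 57.4 to 141 in TAC, and to 75.1 to 197 and 90.5 to 186 at 1 week. Ikzf1 is itself among these 13 genes, so its own reads are part of the sums. Ptprc, the pan-leukocyte gene, had no circle in the table. The other leukocyte-list member was Rasgef1b exons 2-4, and the part of leukocyte content in the Ikzf1 difference was not tested.

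At 8 weeks limma called no member and no circle at all (0%); limma-voom called no member either. At an unadjusted p under 0.05 there were 20 members, beside 6.06% of all circles; 4 start-codon circles were higher, beside 2.62% of all circles, and 15 lower, beside 3.44%. Snrk exons 2-3, from a kinase gene, had 13.8, 6.60, 6.74 and 6.36 normalized reads in sham and 2.39, 3.06 and 0 in TAC, with no overlap (log2 -2.29, adjusted p = 0.459 by limma). Without TAC library 3, at 0, the log2 difference was -1.39. Tmbim6 exons 3-4 had means of 1.33 in sham and 5.64 in TAC (log2 2.29, adjusted p = 0.625), and Epb41l2 exons 2-3 and Kmt5b exons 3-5 had log2 differences of -2.34 and -2.33. Start-codon circles without overlap numbered 6 higher (2.32%, against 3.09% of all circles) and 13 lower (5.02% against 3.03%). Hipk3 exon 2 was among the higher ones at 4 and at 8 weeks. At 4 weeks it had 18.7, 20.4, 13.9, 12.2 and 14.7 in sham and 22.0, 22.0, 21.8 and 21.8 in TAC. At 8 weeks it had 14.9, 9.90, 15.4 and 13.8 in sham and 15.6, 19.4 and 22.3 in TAC. There the nearest values, 15.4 in sham and 15.6 in TAC, lay closer together than the worth of 1 read. The log2 differences were small, 0.47 and 0.49, with adjusted p-values of 0.868 and 0.913 by limma, and at 1 week its sham libraries alone ranged from 1.26 to 34.1.

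By limma, no difference between the TAC effects at 2 times passed for any circle (0%). Limma-voom called 3 of the 1717 circles between 8 and 1 weeks, 2 of them members. Between 8 and 4 weeks it called 3, none of them a member. At an unadjusted p under 0.05 by limma there were 29 of the 286 members between 4 and 1 weeks, where 8.04% of all 1717 circles had such a p. There were 30 between 8 and 1 weeks, beside 8.62% of all circles, and 29 between 8 and 4 weeks, beside 6.35%. The member nearest to the adjusted threshold by limma was S100pbp exons 2-5. It had 0, 0, 0 and 1.03 normalized reads in sham and 3.08, 1.92, 3.99 and 4.86 in TAC at 1 week, and 6.38, 4.40, 0.962 and 2.12 in sham and 0, 0 and 0.857 in TAC at 8 weeks. At 1 week every TAC value was above every sham value, at levels of a few reads. At 8 weeks the lowest sham value and the highest TAC value were each 1 read, so that only the library factors set them apart. The change of the effect from 1 to 8 weeks was -4.79 on the log2 scale with an adjusted p of 0.0557 by limma. With the replicate number as a block the adjusted p was 0.0438, although no pairing of the 8-week samples by that number is stated. At 1 week alone the adjusted p was 0.0829, and 0.0492 without sham library 4.

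Stop-codon circles gave no call by limma at any time, and at an unadjusted p under 0.05 there was 1 of 9, Stk35 exon 3 at 1 week, where 11.7% of all circles had such a p. At 1 week 2 of the 9 had a positive log2 difference, beside 51.9% of all circles, and the median was -0.54, beside 0.04. At 8 weeks 8 of the 9 were positive, beside 51.4%, and the median was 0.32, beside 0.03. Stk35 exon 3 was 1.64 at 1 week (means 1.40 in sham and 5.28 in TAC, adjusted p = 0.355 by limma) and Rap1b exons 6-7 -1.33 (3.10 and 0.969), or -2.13 without sham library 1. The most abundant, Tmem164 exons 5-6 with a mean of 6.13 and Car8 exons 4-8 with 4.80, had differences of -0.56 and -0.54 at 1 week. The whole coding sequence circle of Tmem164 had a mean of 11.1, was present in all 24 libraries, and had differences of 0.28, -0.42 and 0.83 at 1, 4 and 8 weeks, none past the threshold.

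Among the sham libraries, limma called no member between 4 and 1 weeks (0% of all circles) or between 8 and 1 weeks (0.116%), and limma-voom called none. At an unadjusted p under 0.05 there were 18 members in the former comparison, beside 7.57% of all circles, and 32 in the latter. Zfp609 exon 2 had 14.01, 15.7, 9.54, 12.2 and 8.29 normalized reads at 4 weeks and 11.7, 8.80, 13.5 and 9.55 at 8 weeks, all above the 4 sham values of 1 week given above (log2 1.71, adjusted p = 0.189, and 1.60, adjusted p = 0.215, by limma). Tcf20 exons 2-3 had a difference of 2.03 between 4 and 1 weeks (adjusted p = 0.101). Without sham library 1 of 1 week that difference was 1.20 (adjusted p = 0.318), and without sham library 4 of 1 week 2.58 (0.00383). With circles under a mean of 5 reads left out, both Zfp609 differences passed (0.0135 and 0.029). At an unadjusted p under 0.05, 27 start-codon circles were higher and 5 lower in 8-week than in 1-week sham, 12.4% against 7.51% of all circles (5.24% higher and 2.27% lower).

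Grouped by what their hosts do, with lists drawn up with earlier results of these data known, 44 members from 31 hosts belonged to transcription and chromatin regulators. At 1 week 3 of these passed higher, beside 0.757% of all circles, and 1 lower, beside 0.699%, with a median log2 difference of 0.27 beside 0.04 over all circles. Kinase, phosphatase and GTPase genes gave 15 members from 10 hosts. Of these, 12 were positive at 1 week with a median of 0.62, 11 at 4 weeks with 0.39, and 5 at 8 weeks with -0.21, and none passed. RNA-binding and decay factors gave 11 members from only 6 hosts, with medians of 0.25, 0.84 and 0.24 at 1, 4 and 8 weeks, and 6, 9 and 7 of them positive. Ubiquitin and SUMO enzymes gave 7 members with medians of -0.16, 1.18 and 0.12, with 2, 4 and 4 positive. The medians over all circles were 0.04, 0.12 and 0.03, with 51.9%, 56.4% and 51.4% positive. The 11 members from cytoskeletal and adhesion genes had a median of -0.02 at 1 week, and the 11 from membrane traffic genes -0.22. Of 26 members from widely reported circle hosts 12 were positive at 1 week.

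The marker lists were summed in each library to set beside these results. Circles of cardiomyocyte genes, led by Ttn and present for 10 of the 56 genes listed, summed to 43.4 to 147 normalized reads in 1-week sham and 26.8 to 38.4 in 1-week TAC, to 41.5 to 135 and 21.8 to 45.6 at 4 weeks, and to 65.4 to 135 and 48.9 to 62.3 at 8 weeks. Sham and TAC did not overlap at 1 and 8 weeks. No circle came from Myh6, Tnnt2 or Actc1. Circles of resting fibroblast genes (11 of 47), led by Nfix, summed to 159 to 344 in sham and 127 to 208 in TAC at 1 week, with none from Pdgfra, Col1a1 or Tcf21; endothelial circles (8 of 31) summed to 18.8 to 50.7 and 19.0 to 37.9. No member belonged to the cardiomyocyte, endothelial or mural lists, and Nav1 exons 1-3 was the only one of the fibroblast list. The part of these marker sums in the differences above was not tested. A table of circles says nothing on the linear RNA of genes that give none.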

How the data were processed

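Ribosomal RNA-depleted, stranded total RNA libraries of cardiac fibroblasts were sequenced paired-end, per the labels' protocols. The authors deposited a table of 1717 back-splice junctions in 24 libraries as a normalized signal. All 41208 values were whole reads divided by a library factor plus 0.01, within 0.001, and the offset was removed. FastQC, Trimmomatic, STAR and mm10 are named per the submitters' processing notes; the name of the deposited table gives DCC, a caller of circular RNAs. For its filters and the method of normalization nothing is stated in the labels. No pair of replicates was alike within sampling noise (37 pairs, 0 identical).

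Members were found with GENCODE M21 exons and coding sequences, on the same build. Differences were tested with limma 3.58.1 (R 4.3.3, intensity trend) on log2(normalized reads + 0.5) in 6 groups over all 24 libraries, with Benjamini-Hochberg adjustment over 1717 circles and calls at 0.05. At 1 week same-numbered sham and TAC libraries tended to deviate together. Their correlations were 0.257, 0.155, 0.231 and 0.161 over the 272 circles that averaged 5 reads or more. Of 8 libraries with a partner, 6 correlated best with the library of their own number. The titles state no pairing, and these weak correlations do not settle whether the samples were paired. The main tests took the libraries as unpaired. Alternatives changed the pseudocount, filter, scaling, block, libraries and tool. Shares, lengths, contexts and frames were described without a test (Python 3.11.15). Circles were named by rule: the 12 start-codon and 8 stop-codon circles of highest mean, those called, the 5 and 2 of smallest p in each direction per TAC comparison, the 3 per sham comparison, all within a UTR or with a whole coding sequence, widely reported hosts, and extremes of UTR length. The members and lists were chosen with earlier results of these data known.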

Additional observations from a re-analysis of the deposited data

Results flagged for a closer look

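Among 125 groups of 4 or more libraries examined for a single value far from the rest, 4 stood out; chance gives about 1 in 20. The share of reads in stop-codon circles was 0.139% in TAC library 1 of 1 week, whereas the other 3 libraries had 0.413 to 0.441%. Smox exons 2-3 had 47.7 normalized reads in sham library 1 of 1 week, against 16.5 to 18.7 in the others, and 30.1 in TAC library 2 of 4 weeks, against 15.4 to 17.8 in the others. Rap1b exons 6-7 had 0 normalized reads in sham library 1 of 1 week, against 3.74 to 4.51 in the others.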

How the results depend on the processing

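The number of members called at 1 week, 4, was 7 with circles under a mean of 5 reads left out, 2 with limma-voom and 1 with the 1-week libraries alone, and ran from 0 (without TAC library 4) to 7 (without sham library 4) when single libraries were left out. It also moved over 1.5 times without sham library 1 or 2 or TAC library 2 or 3. Over all circles the calls at 1 week were 24 of the 272 kept by the filter, 18 of 1717 with limma-voom and 4 of 1717 with the 1-week libraries alone. At 4 weeks, where limma called 0, the number of members was 1 with the mean-5 filter, 1 with limma-voom and 2 with the 4-week libraries alone. It was 0 whichever library was left out, as at 8 weeks. Over all circles these 3 settings called 3, 10 and 14 at 4 weeks. The averaged count of 1 ran from 0 (without TAC library 1 of 8 weeks) to 1. For the change of effect between times, 0 became 1 with a pseudocount of 1, 2 with limma-voom (S100pbp and Ezh2), 1 with the replicate block, and 0 to 3 with single libraries left out. Over all circles the pseudocount of 1 gave 2, and the block gave 3 for 8 against 1 weeks and 1 for 4 against 1 weeks. Limma-voom gave 3 for 8 against 1 weeks and 3 for 8 against 4 weeks. For sham, 4 against 1 weeks gave 1 with the mean-5 filter and 0 to 3 with libraries left out, and 8 against 1 weeks gave 1 with the filter and 0 with libraries left out. Over all circles the filter gave 1 and 3. Circles wholly within the 5′ UTR numbered 19 in place of 17 when the transcript with most exons was taken first, and 28 when any matching transcript sufficed. Start-codon circles numbered 253 and 339 under these choices, in place of 259. They numbered 233 when every matching transcript had to give the class, as 26 had another class in at least 1 transcript.

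The direction turned for 3 stop-codon circles with single libraries left out. Car8 exons 4-8 averaged over the times ran from -0.400 to 0.0397 (without TAC library 3 of 8 weeks), beside -0.19 with all. Cpsf6 exons 2-9 at 1 week ran from -0.52 (without sham library 4) to 0.702, beside 0.08 with all. It also turned without TAC library 3 or 4. Ywhag exon 2 at 4 weeks ran from -0.646 to 0.26 (without sham library 1), beside -0.27 with all. It also turned without TAC library 1. The causes were not tested. With the replicate block, 5 members were called at 1 week in place of 4, adding Atxn1 exons 2-4, beside 30 of all circles in place of 25. No other blocked call of a member changed apart from S100pbp above, whose block includes 8-week libraries. At 4 and 8 weeks same-numbered libraries deviated together less evenly (correlations 0.0117, 0.0813, 0.135 and -0.190, and 0.206, 0.169 and -0.0175). Their own number was the best match for 3 of 8 and 4 of 6 libraries. The sham column names carry other numbers than the titles at those times, and a pairing by those names was not examined. Over all circles, the 2 calls at 4 weeks became 6 with TMM scaling, 0 with a pseudocount of 0.1, 6 with a pseudocount of 1, 10 with limma-voom, 14 with the 4-week libraries alone and 4 with the block, and the 25 at 1 week became 4 with the 1-week libraries alone. The 2 planned count models were not run. The median change of start-codon circles turned at 8 weeks, from -0.08 to 0.07, when circles under a mean of 5 reads were left out; at 4 weeks it fell from 0.14 to 0.03, and over all circles these medians were then 0.09 and 0.04. Few reads per circle (a median mean of 1.80 normalized reads) limit the precision of these differences.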
